A study of Mus musculus with 2 samples.

Results

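The genes of the cytosolic ribosome were examined in fibroblastic reticular cells (FRCs) grown in culture out of mouse lymph nodes, which are the fibroblasts that build the conduit network of the node. Members were all genes with a ribosomal protein symbol (Rpl or Rps followed by a number, or Rplp0, Rplp1 and Rplp2) that had a probe set of their own in the platform annotation, with the S6 kinases left out. This gave 60 of 19751 named genes, measured by 188 probe sets. They were 33 core proteins of the large subunit, 20 core proteins of the small subunit and 7 paralogs, which are copies that stand beside a core gene. The study held 2 Affymetrix arrays of 1 group, called replicate 2 and replicate 1 after their titles. The mice were C57BL6/J, 4 to 6 weeks old and given no treatment, and both arrays carried total RNA of their nodes' stromal cells, cultured in αMEM with 10% fetal calf serum over 7 to 10 days. The labels describe the FRCs as purified and name no step for it, and they do not tell whether the replicates were separate animals, pools or cultures, so what separates the arrays may be technical. With no second condition there was no contrast to test, and every difference below is replicate 2 minus replicate 1 on the log2 scale, given as a value.

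The ribosome is assembled from ribosomal RNA and ribosomal proteins in a small subunit, which reads the mRNA, and a large subunit, which joins amino acids. The proteins are made in every growing cell, in step with one another. Their mRNAs usually begin with a C and an unbroken run of C and T (the 5′ terminal oligopyrimidine, or TOP, motif), through which the mTORC1 kinase sets how much of them is translated, so an mRNA level alone does not give the amount of protein made. Some paralogs are known to be restricted: Rpl3l to heart and skeletal muscle, Rpl10l and Rpl39l to the male germ line.

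The RefSeq promoter table (build GRCm38.p6) held at least 1 start for 48 members, 42 of them core and 6 paralogs. Some members had several listed starts, of which at most 1 is printed. The windows here are shown because the start of the transcript is the feature that ribosomal protein genes are known for. Each holds 40 bases before the annotated start and the 20 bases that begin with it, 5′ to 3′ on the gene's strand. Capitals mark the pyrimidine run, a C followed by at least 4 further bases that are each C or T, where one began within 5 bases of the start. Rps6 (chr4:86857348-86857407, minus strand), the small subunit protein that S6 kinases phosphorylate, Rps18 (chr17:33955646-33955705, minus), Rps10 (chr17:27635225-27635284, minus), Rpl28 (chr7:4792925-4792984, plus) and Rpl38 (chr11:114668540-114668599, plus) had a run exactly at the start. The paralog Rps27l (chr9:66946046-66946105, plus) had one 1 base downstream of this start and none within 5 bases of its other listed start (chr9:66946373-66946432).
Rps6: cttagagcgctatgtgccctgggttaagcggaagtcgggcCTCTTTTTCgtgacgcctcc
Rps18: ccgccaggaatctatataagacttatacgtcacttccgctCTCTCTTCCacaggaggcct
Rps10: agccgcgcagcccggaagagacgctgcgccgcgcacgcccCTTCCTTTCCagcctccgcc
Rpl28: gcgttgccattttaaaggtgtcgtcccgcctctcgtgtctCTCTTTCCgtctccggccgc
Rpl38: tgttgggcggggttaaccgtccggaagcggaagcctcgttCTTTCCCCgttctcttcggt
Rps27l: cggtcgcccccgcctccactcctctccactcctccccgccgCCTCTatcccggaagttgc
No run began within 5 bases of the annotated start of the core genes Rplp0 (chr5:115559427-115559486, plus) and Rpl5 (chr5:107900488-107900547, plus) or of the restricted paralogs Rpl3l (chr17:24727786-24727845, plus), Rpl10l (chr12:66284382-66284441, minus) and Rpl39l (chr16:10170188-10170247, plus).
Rplp0: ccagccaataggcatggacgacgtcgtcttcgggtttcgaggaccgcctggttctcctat
Rpl5: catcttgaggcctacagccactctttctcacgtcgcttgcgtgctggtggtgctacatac
Rpl3l: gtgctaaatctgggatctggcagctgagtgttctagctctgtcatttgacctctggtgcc
Rpl10l: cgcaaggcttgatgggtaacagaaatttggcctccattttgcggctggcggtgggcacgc
Rpl39l: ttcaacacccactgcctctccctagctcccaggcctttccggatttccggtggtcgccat

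A gene counted if any of its listed starts matched, and the 42 core genes had 49 listed starts. A run exactly at the annotated start was found in 9 of 42 core genes (21.4%), against 2.97% of 10565 matched genes above the background limit and 3.01% of all 27025 genes of the promoter table. Within 5 bases of the start the count was 16 of 42 core genes (38.1%), against 23.4% of genes above the limit and 21.2% of all. Within 10 bases it was 23 of 42 (54.8%), against 36.8% and 34.4%, so most of the annotated core starts fell on a run only when several positions were allowed. Of the 6 paralogs, 1 had a run at the start, 2 within 5 bases and 5 within 10. A match describes the letters at an annotated start, which can lie some bases away from the start used in these cells.

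Further motifs were searched on both strands of the 300-base promoter window, which holds 250 bases before the start and 50 after it. Here too a gene counted if the window of any of its listed starts matched. Of the 5 motifs searched, the one with the largest gap between core and all genes in relative terms was TCTCGCG, present in 13 of 42 core genes (31.0%) and in none of the 6 paralogs, against 5.57% of genes above the limit and 2.92% of all genes. At shares as low as those, 6 genes of any kind would seldom hold a match, so the paralogs are not set apart from other genes. Shown are 3 core windows with TCTCGCG, which is in capitals where read on either strand. They belong to Rpl26 (chr11:68901526-68901585, plus), Rps19 (chr7:24884552-24884611, plus) and Rps28 (chr17:33824543-33824602, minus), and matches on opposite strands overlap where the capitals run longer than the motif.
Rpl26: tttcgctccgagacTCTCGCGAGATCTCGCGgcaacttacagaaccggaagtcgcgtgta
Rps19: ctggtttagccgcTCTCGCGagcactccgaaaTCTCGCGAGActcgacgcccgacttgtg
Rps28: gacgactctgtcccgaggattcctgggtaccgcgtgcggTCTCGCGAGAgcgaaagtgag
The letters CCGGAAG, the core of ETS factor sites, were in 16 of 42 core genes (38.1%), against 18.4% of genes above the limit and 9.93% of all. The GC box letters GGGCGG were in 25 core genes (59.5%), which was below the 67.3% of genes above the limit and above the 38.2% of all genes. TATAAA was in 5 core genes (11.9%), against 8.65% and 15.7%, and AAGATGG, the core of YY1 sites, in 4 (9.52%), against 8.04% and 7.28%. For TATAAA and GGGCGG the side on which the core genes fell thus turned with the genes they were set against.

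The deposited intensities, made with RMA (robust multi-array average), were taken to log2, and the probe sets of a gene were averaged. Background was set at the 95th percentile of the 1035 olfactory receptor probe sets, 7.17 on replicate 2 and 7.15 on replicate 1. A stricter limit from 33 probe sets for genes of other tissues lay at 8.19 on replicate 2 and 8.10 on replicate 1. Of 15 FRC marker genes, 13 exceeded the first limit on each array and 11 the stricter one, against 7 and 1 of 10 blood endothelial, 2 and 0 of 6 lymphatic endothelial and 6 and 2 of 14 leukocyte genes. Over all named genes 67.3% passed the first limit and 49.7% the stricter one. The blood endothelial count at the first limit was thus near that of any genes, and the lymphatic endothelial and leukocyte ones were below it. The leukocyte genes above both limits were Cd53, 10.75 on replicate 2 and 10.67 on replicate 1, and Cd68, 8.96 on replicate 2 and 9.09 on replicate 1. Lyz2 was above the first limit on replicate 2 only, at 8.43 against 7.12 on replicate 1. Of the FRC genes, Pdgfra, Pdgfrb, Pdpn and Thy1 passed both limits, Ccl19 and Il7, which FRCs make in the node, passed only the first, and Bst1 and Fap were below it on both arrays. Probe sets differ in how well they bind, so no gene's level was ranked against another's.

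Nearly all cytosolic ribosomal protein genes were detected. On both arrays 57 of 60 members passed the first limit, against 67.3% of all named genes, and 55 passed the stricter limit, against 49.7% of all. By class, 52 of 53 core genes and 5 of 7 paralogs passed the first limit, and 51 and 4 passed the stricter one. Rpl39l was above the first limit on replicate 2 only, and Rpl7a and Rpl3l were above it on neither array. Of 76 core symbols listed for this work, 53 had a probe set of their own. The other 23 were not analysed here as genes: 16, among them Rpl3, Rpl11, Rpl39 and Rps27, appear only on probe sets shared with other genes, and 7, among them Rps27a, on neither kind. In whole-culture RNA, fewer cells of a type and less RNA per cell cannot be told apart.

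**Figure D1:**
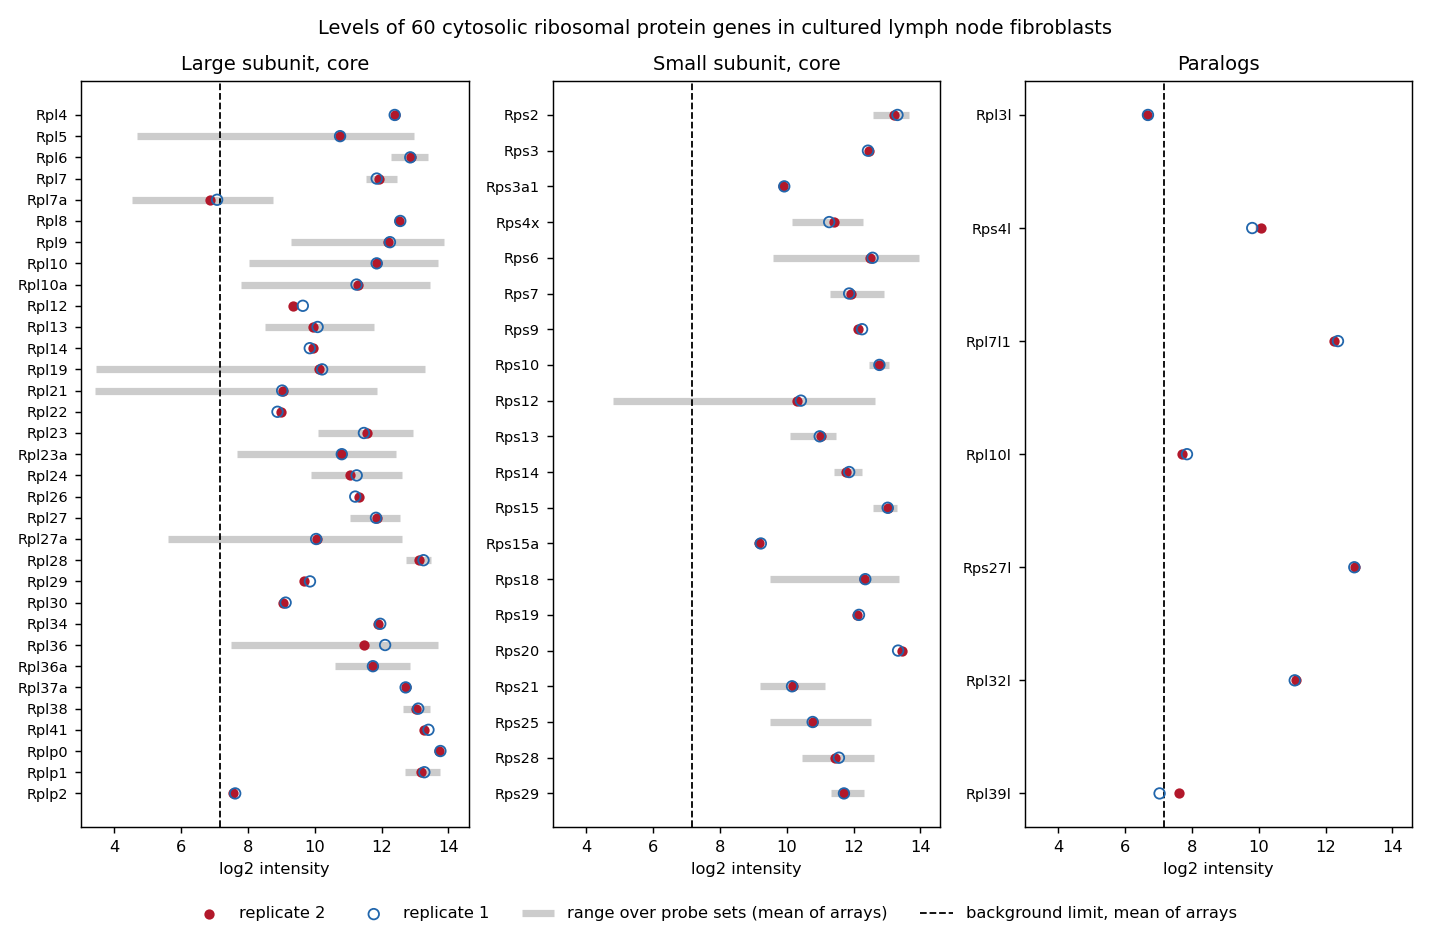
Log2 intensity of each of the 60 ribosomal protein genes, ordered by symbol, in panels for the large subunit, the small subunit and the paralogs, with filled points for replicate 2, open circles for replicate 1, grey bars for the range over a gene's probe sets and a dashed line for the background limit (mean of arrays, 7.16). Rpl7a and Rpl3l are the members left of the line on both arrays, and the points of Rpl36 and Rpl39l lie farthest apart.

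The stalk of the large subunit, which recruits the factors that drive elongation, was measured by all 4 of its genes. Its base, Rplp0, was 13.73 on replicate 2 and 13.76 on replicate 1 (13.74 ± 0.02, SD, n = 2). Rplp1, an acidic protein of the tip, was 13.18 on replicate 2 and 13.28 on replicate 1. Its partner Rplp2 was 7.55 on replicate 2 and 7.62 on replicate 1, above the first limit and not above the stricter one. The only probe set of Rplp2 carried no RefSeq mRNA accession in the annotation. Rpl12, which binds beside the stalk, was 9.36 on replicate 2 and 9.64 on replicate 1 and also had 1 probe set without a RefSeq mRNA accession. All 4 stalk genes were lower on replicate 2, with a median difference of -0.09. Of all genes above the mean limit, 48.8% were lower on replicate 2.

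Among the other large subunit proteins, Rpl5, which with Rpl11 carries the 5S RNA into the subunit and binds Mdm2 when assembly is disturbed, was 10.76 on both arrays. Rpl10, which joins late and completes the catalytic centre, was 11.87 on replicate 2 and 11.85 on replicate 1. Rpl22, an RNA-binding protein of the surface that thymocytes need for their development, was 8.98 on replicate 2 and 8.89 on replicate 1. Of the genes at the exit of the peptide tunnel, Rpl19 was 10.11 on replicate 2 and 10.22 on replicate 1, and Rpl26 was 11.32 on replicate 2 and 11.21 on replicate 1. Rpl38, which mouse mutants tie to skeletal patterning, was 13.04 on replicate 2 and 13.09 on replicate 1. Rpl7 was 11.92 on replicate 2 and 11.85 on replicate 1, and Rpl36a was 11.73 on replicate 2 and 11.74 on replicate 1. In all of these the arrays differed by at most about 0.11, less than the 1.5-fold mark used throughout.

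Rpl7a was the only core gene below the limit. It was 6.86 on replicate 2 and 7.08 on replicate 1 as the mean of 3 probe sets, which averaged between 4.54 and 8.74, and 2 of them passed the limit. Its place below the limit therefore belongs to the average and not to every probe set.

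In the small subunit, Rps6 was 12.49 on replicate 2 and 12.57 on replicate 1 (12.53 ± 0.05, SD, n = 2). Rps19, the gene most often mutated in Diamond-Blackfan anaemia, was 12.11 on replicate 2 and 12.16 on replicate 1. Rps3, at the mRNA entry, was 12.45 on replicate 2 and 12.43 on replicate 1. Rps20, of the head of the subunit, was 13.44 on replicate 2 and 13.33 on replicate 1. Rps4x, the X-linked form of the protein, was 11.42 on replicate 2 and 11.27 on replicate 1, and all 4 of its probe sets were higher on replicate 2, by 0.09 to 0.22. All 20 small subunit members passed both limits on both arrays, against 49.7% of all named genes at the stricter one. Of 18 genes listed for Diamond-Blackfan anaemia, 8 were measured, 5 of them higher and 3 lower on replicate 2, each by at most 0.11. Over all genes 48.8% were lower, and a split of 8 genes does not set these apart.

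The paralogs fell on both sides of the limits. Rps27l, a p53 target and copy of Rps27, was 12.89 on replicate 2 and 12.86 on replicate 1 (12.88 ± 0.02, SD, n = 2). Rpl7l1, which acts in large subunit assembly, was 12.26 on replicate 2 and 12.37 on replicate 1 (12.32 ± 0.08). Rpl32l was 11.11 on replicate 2 and 11.08 on replicate 1. Rps4l, which RefSeq lists as a transcribed pseudogene, was 10.06 on replicate 2 and 9.81 on replicate 1, and its 2 probe sets were higher on replicate 2 by 0.20 and 0.30. These 4 genes passed both limits on both arrays.

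The 3 tissue-restricted paralogs were at or near the limit. Rpl3l was 6.66 on replicate 2 and 6.69 on replicate 1, below it on both arrays. Rpl10l was 7.69 on replicate 2 and 7.86 on replicate 1, above the first limit and not above the stricter one. Rpl39l was 7.62 on replicate 2 and 7.04 on replicate 1, a measured difference of 0.59. With replicate 1 set to its limit, Rpl39l was at least 1.39-fold higher on replicate 2. Of the genes used as markers of the tissues that these paralogs are known from, 12 of 16 striated muscle genes passed the first limit and 5 the stricter one, and 2 of 15 germ cell genes passed the first and 0 the stricter one. Prm1, Prm2, Tnp1, Tnp2 and Odf1 of the germ cell list and Myh6 of the muscle list also helped to set the stricter limit. Prm1 and Prm2 were the 2 germ cell genes above the first limit. Their place under the stricter one was thus partly set by their own values and is no separate result. The muscle count at the first limit was near the 67.3% of all named genes, and that at the stricter limit was below their 49.7%. Their part in the paralogs' values was not tested.

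Where a core partner had its own probe sets, the pairs could be set side by side by their place relative to the limits and by their difference. Rpl10, with a difference of 0.02, passed both limits, and Rpl10l, with -0.16, the first only. Rpl7, with 0.06, and Rpl7l1, with -0.11, both passed both limits. Rps4x, with 0.15, and Rps4l, with 0.25, did so as well and were both higher on replicate 2. Neither of the 2 probe sets of Rps4l carried a RefSeq mRNA accession. Whether the probe sets of any paralog also bind the mRNA of its core partner was not tested. Rpl3, Rpl39, Rpl32 and Rps27, the partners of the other paralogs, had no probe set of their own, and neither had Rpl22l1. Of the ribosomal proteins whose symbols do not follow the Rpl and Rps pattern, Fau, which is made as a ubiquitin-like fusion, was 12.96 on replicate 2 and 12.97 on replicate 1. Rpsa, known also as a laminin receptor, was 11.08 on replicate 2 and 11.04 on replicate 1.

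The ribosomal protein genes stood out by how many probe sets carried their names. Several probe sets were present for 37 of 60 members (61.7%), against 4.52% of all named genes, with a maximum of 10 for Rpl23a. Of the 188 probe sets, 179 (95.2%) exceeded the first limit on each array. By the mean of the arrays 181 of them were above the mean limit, against 14737 of all 21354 single-gene probe sets. A RefSeq mRNA accession was carried by 183 of the 188, and the share over all probe sets was not computed. Mouse ribosomal protein genes have many processed copies in the genome, and probe sets placed on copies and on the gene itself cannot be told apart by name here, so levels of these genes are uncertain.

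Probe sets that carried 1 gene's name often differed widely in level. Their averages lay more than 1 log2 unit apart in 27 of the 37 genes and more than 3 apart in 15, with a median range of 2.14, against 1.08 in 856 other genes with several probe sets. At 2 or 3 probe sets the ranges were close to those of other genes with as many. The median was 0.83 for 9 members with 2 probe sets, against 0.90 for 697 other genes. It was 1.39 for 9 members with 3, against 1.42 for 83 others. Genes with more than 3 probe sets were not compared at equal numbers. Those include all but Rpl7a of the 15 members with the widest ranges. The 15 genes with more than 3 log2 units were Rpl5, Rpl7a, Rpl9, Rpl10, Rpl10a, Rpl13, Rpl19, Rpl21, Rpl23a, Rpl27a, Rpl36, Rps6, Rps12, Rps18 and Rps25. The other 12 were Rpl6, Rpl23, Rpl24, Rpl27, Rpl36a, Rplp1, Rps2, Rps4x, Rps7, Rps13, Rps21 and Rps28. The probe sets of Rpl19 averaged between 3.45 and 13.29, those of Rpl5 between 4.68 and 12.97, those of Rps12 between 4.80 and 12.65 and those of Rps6 between 9.58 and 13.96. In 7 genes (Rpl5, Rpl7a, Rpl19, Rpl21, Rpl27a, Rpl36 and Rps12) probe sets lay on both sides of the first limit.

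Between the arrays the ribosomal protein genes differed little. Of the 58 members above the mean limit, 2 were at least 1.5-fold apart as measured, Rpl36 and Rpl39l, against 4.77% of the 13577 genes above it. At least 2-fold apart were 0 members, against 192 of the 13577 genes. At shares as low as those, 58 genes of any kind would hold few, so these counts do not set the members apart. Rpl36 and Rpl39l both rest on a probe set value below the limit of its array. With such values set to that limit 0 members were 1.5-fold apart, against 4.63% of the 13577 genes. On replicate 2, 32 members were lower and 26 higher, with a median difference of -0.02, against 48.8% lower and a median of 0.00 over all genes. In the core, 18 of 32 large subunit genes and 12 of 20 small subunit genes were lower on replicate 2, with medians of -0.03 in each. By level, the core split did not rise or fall steadily, and each band held few core genes. Lower were 6 of 9 core genes between the limit and a log2 intensity of 10, against 49.4% of all genes there. Between 10 and 12 it was 10 of 24, against 48.1%, and at 12 and above 14 of 19, against 46.7%. Of the 6 paralogs above the mean limit, 2 were lower.

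The largest differences were in single genes. After Rpl36, the members lowest on replicate 2 relative to replicate 1 were Rpl12 by -0.28, Rpl7a by -0.22, Rpl24, a late-joining protein at the subunit interface, by -0.19, and Rpl29 by -0.18. Rpl24 was 11.06 on replicate 2 and 11.25 on replicate 1. Rpl29 was 9.67 on replicate 2 and 9.86 on replicate 1. After Rpl39l and Rps4l, the members highest on replicate 2 relative to replicate 1 were Rps4x by 0.15, and Rps20 and Rpl26 by 0.11 each.

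Rpl36, a protein of the large subunit, was 11.47 on replicate 2 and 12.10 on replicate 1 as the mean of 8 probe sets, a measured difference of -0.64. It rested on 1 probe set, which read 5.33 on replicate 2, below the limit, and 9.63 on replicate 1. With replicate 2 set to its limit, that probe set was at least 5.48-fold lower there and the gene's difference was -0.41, under the 1.5-fold mark. The other 7 probe sets of Rpl36 differed by -0.41 to 0.02. Without the deviating probe set, a choice made after its values were seen, Rpl36 was 12.34 on replicate 2 and 12.46 on replicate 1, a difference of -0.11. A smaller disagreement of this kind occurred in Rpl13, where 1 of 9 probe sets differed by -1.23 and another by 0.45 while the gene's mean differed by -0.13.

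**Figure D2:**
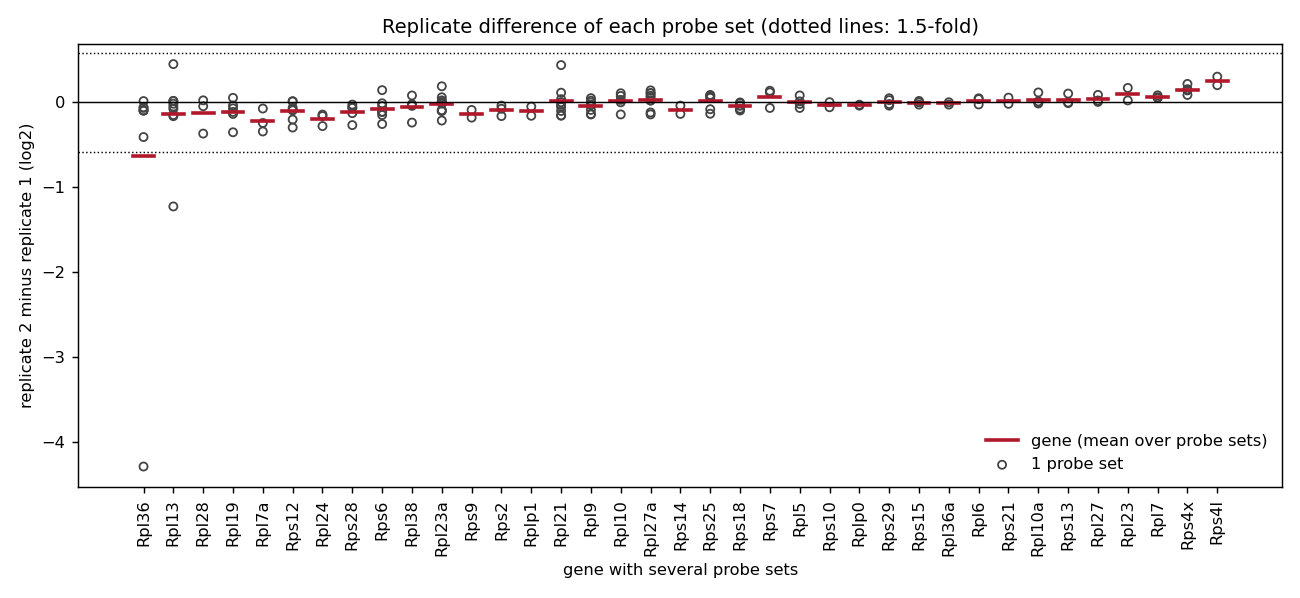
Difference between the arrays (replicate 2 minus replicate 1, log2) of each probe set of the 37 genes that have several, with open circles for probe sets, red bars for the gene's mean and dotted lines at 1.5-fold. The lowest circle is the probe set of Rpl36 that was below the limit on replicate 2, so its place on the axis is not a measured size, 1 probe set of Rpl13 lies at -1.23, and the others lie between the dotted lines.

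The spread between the arrays was narrower for ribosomal protein genes than over all genes. The median SD (n = 2) was 0.0455 for the 58 members, 0.0417 for the 52 core genes above the mean limit and 0.0975 for the 6 paralogs, against 0.0776 for all 13577 genes. The 95th percentile of the SD was 0.183 for members and 0.133 for core genes, against 0.404 for all genes. Small subunit genes had a median SD of 0.0374 and large subunit genes 0.0466. The paralog value rests on few genes: without Rpl39l it was 0.0797 for 5 genes, near that of all genes, and for the 4 paralogs above both limits it was 0.0516, below it. These are descriptions with no test, since genes are not replicates.

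Level and the averaging of probe sets both bear on a spread, so it was also given at like level and at 1 probe set. The median SD of core genes was 0.0618 between the limit and a log2 intensity of 10 (9 genes), 0.0455 between 10 and 12 (24 genes) and 0.0331 at 12 and above (19 genes), against 0.0770, 0.0830 and 0.0609 over all genes in those bands. Among genes with 1 probe set it was 0.0570 for 22 members, against 0.0781 for 12839 genes. Taken probe set by probe set, it was 0.0550 for the 60 of the ribosomal protein genes between 10 and 12, against 0.0827 over all, and 0.0307 for the 82 at 12 and above, against 0.0566. In the lowest band the order was the other way, with 0.103 for 39 probe sets of ribosomal protein genes, against 0.0786 over all. By probe set, the narrower spread was thus seen above a log2 intensity of 10 and not below it.

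**Figure D3:**
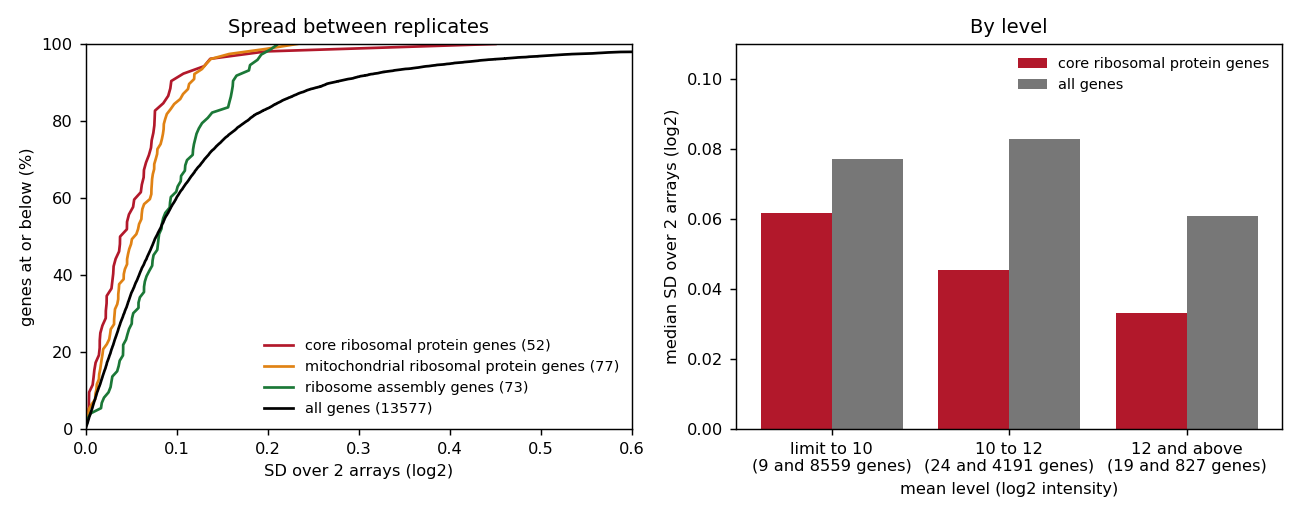
Spread between the arrays (SD of log2 intensity, n = 2), on the left as the percentage of genes at or below each SD for 52 core, 77 mitochondrial ribosomal protein and 73 ribosome assembly genes and all 13577 genes, with the axis ending before the largest SDs of all genes, and on the right as the median SD in 3 bands of mean level. The bars of the core genes are 0.0618, 0.0455 and 0.0331, each below that of all genes in its band.

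Other genes of translation were measured with the same arrays. All 77 genes of the mitochondrial ribosome passed both limits, against 49.7% of all named genes at the stricter one. Of these 77, 37 were lower on replicate 2, against 48.8% of all genes, with a median difference of 0.01 and a median SD of 0.0558. The extremes there were Mrpl45 at -0.28 and Mrpl48 at 0.33. Of 30 initiation factor genes 16 were lower on replicate 2, with a median of -0.01 and a median SD of 0.0373, and the extremes were Eif3d at -0.12 and Eif3i at 0.11. Of 9 elongation and release factor genes 5 were lower, with a median of -0.03 and a median SD of 0.0314, and the extremes were Etf1 at -0.14 and Eef1b2 at 0.10. Of 13 genes outside the ribosome known for TOP mRNAs 7 were lower, with a median of -0.02 and a median SD of 0.0333, and Npm1, a nucleolar chaperone, was the lowest at -0.14. None of these genes was 1.5-fold apart. The median SDs of the initiation, elongation and TOP lists were below the 0.0455 of the ribosomal protein genes. The ribosomal protein genes were thus not alone in a spread narrower than that over all genes. The lists were not matched to them by level or number of probe sets, so the order between them is not a like comparison. Core ribosomal protein genes at a log2 intensity of 12 and above had a median SD of 0.0331. These lists overlap: Eef1a1, Eef1b2, Eef1d, Eef2, Eif3e, Eif3f, Eif3h, Eif4b and Pabpc1 of the TOP list were also in the initiation or elongation list. The TOP median is therefore not separate from the other 2. Npm1 was also in the assembly list.

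Genes that build ribosomes were lower on replicate 2 more often than the ribosomal proteins themselves. Of 73 measured genes for ribosome assembly and RNA polymerase I, 64 (87.7%) were lower on replicate 2, with a median of -0.11, against 48.8% lower and a median of 0.00 over all genes and 32 of 58 lower among the ribosomal protein genes. No assembly gene was 1.5-fold apart. The lowest was Nop14, of the small subunit processome, at -0.30, and the highest Nop10, of the pseudouridylation particles, at 0.23. In the same direction, all 23 measured cell cycle genes were lower on replicate 2, with a median of -0.70, 13 of them at least 1.5-fold apart, against 4.77% of all genes. Mki67, the proliferation marker, was 9.45 on replicate 2 and 10.52 on replicate 1. The part of that difference in the assembly genes was not tested, and with 1 array on each side neither shift has a replicate check.

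**Figure D4:**
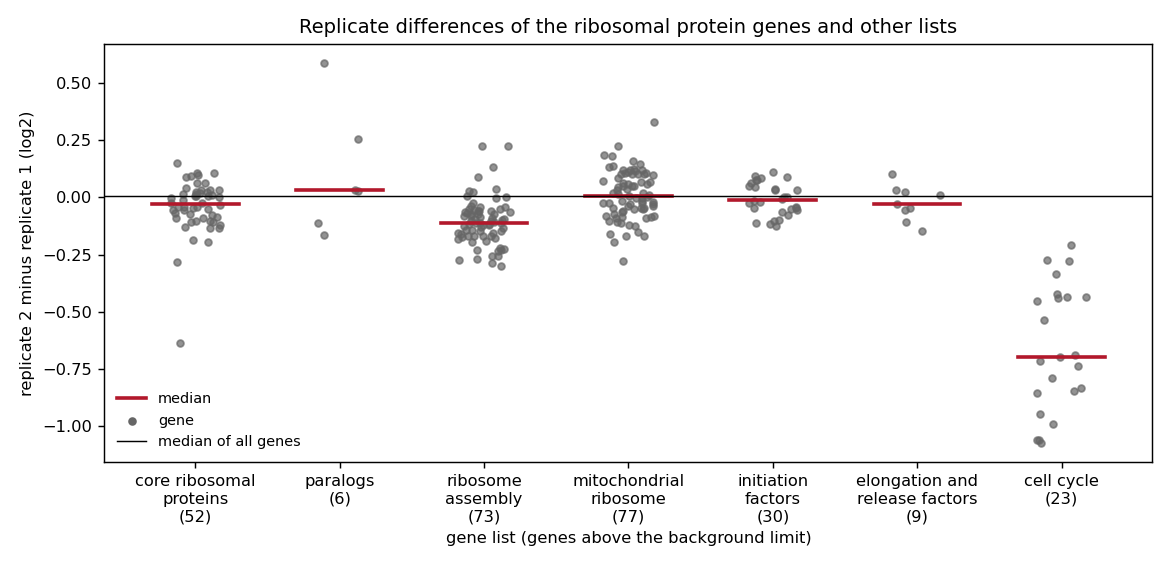
Difference between the arrays (replicate 2 minus replicate 1, log2) of the genes of each list above the mean limit, 1 point per gene, with red bars for the list's median and a line for the median of all genes. Core ribosomal proteins, mitochondrial ribosomal proteins and translation factors centre near 0, assembly genes centre at -0.11 and cell cycle genes at -0.70.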

How the data were processed

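The deposited value table gives linear intensity per probe set, which the authors made with RMA per the submitters' processing notes. RMA subtracts background, normalises by quantiles and summarises probes, which hides any change in total RNA per cell. Log2 values were computed here from the deposited intensities with Python 3.11.15, numpy 2.4.6, pandas 2.3.3 and statsmodels 0.14.6. Of 24679 probe sets, 21354 had 1 gene and were used, 1275 with several genes and 2050 with no row were left out of gene results. Of the 21354, 21277 were found in the RefSeq gene table. Groups came from the titles, and 0 value columns were left unmapped. No test was run, since 2 arrays of 1 group give no contrast, and precision is limited by how few arrays there are. Members and lists were chosen with earlier results of these data known, and Rpl32l joined the paralogs after the annotation was read. Named were the paralogs, ribosomal proteins outside the pattern, members below the limit, the 5 largest differences each way, members 1.5-fold apart or with discordant probe sets, well-known core members, and the extremes of other lists. Rpl28, Rps18, Rps10 and Rps28 were chosen for their starts, and Rpl13, Rpl29, Rps3 and Rps12 after their values were seen. Alternatives were another percentile or gene set for the limit, quantile normalisation, removal of a loess trend, other summaries of probe sets, other filters and other windows at the start. The code was tested on simulated data.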

Additional observations from a re-analysis of the deposited data

Results flagged for a closer look

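Probe sets that the platform gives to several genes took no part in the gene results. Among them, 197 named a ribosomal protein symbol, and 178 of these (90.4%) were above the first limit on both arrays, against 525 of 1078 other shared probe sets (48.7%) and 179 of the 188 probe sets of the 60 members. They were singled out because they carry signal in data that the gene results did not use. Of the 179 above the mean limit, 120 (67.0%) were lower on replicate 2, with a median difference of -0.03, and 0 were 1.5-fold apart, against 49.2% lower and 689 at least 1.5-fold apart among the 14737 single-gene probe sets above it. Which of the genes they name gave the signal was not tested.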

How the results depend on the processing

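No paired analysis was possible because there is 1 group only. Of 186 values recomputed under alternatives, 175 stayed within a yardstick and 11 moved. The yardstick was the replicate spread, 1.5-fold for counts, and a 95% binomial interval for the share with a pyrimidine run. For median SDs it was the SD over genes, 0.082 for members and 0.166 for all genes. Those exceed the medians, 0.0455 and 0.0776, so no lower value could count as moved. Genes with 1 probe set could not change with the choice of probe set. The 175 thus include values that could not move. Among 64 recomputed median differences of lists, 6 turned their sign, all at sizes of at most 0.0235: members were at 0.0017 with the highest probe set, mitochondrial ribosome genes at -0.0093 under quantile normalisation and -0.0021 without the loess trend, TOP genes outside the ribosome at 0.0016 under quantile normalisation and 0.0096 with the highest probe set, and the mTORC1 list at 0.0235 with the lowest. The count of members at least 1.5-fold apart, 2, was 1 under quantile normalisation, with the highest probe set of each gene, with the stricter filter and with the median probe set, 3 with the lowest probe set and 0 with values below the limit set to it. The median probe set and that last setting were added after seeing the data. The share of core genes with a pyrimidine run was 21.4% only at the start and 54.8% within 10 bases. The difference of Rpl36 was -0.06 with the highest and -0.02 with the median probe set, and that of Rpl13 was -1.23 with the lowest. Members above the limit, 57, ranged between 51 (lowest probe set) and 59 (90th percentile), and were 57 or 58 with 1 replicate left out. Core genes above it were 52 without either replicate, and paralogs 5 or 6. The median SD of members ranged between 0.0361 and 0.0635, against 0.0723 to 0.0837 for all genes. The median difference of members lay between -0.03 and 0.00. Limits: 2 arrays, possibly of 1 culture, show the spread of these arrays alone, and probe sets on gene copies leave the levels of ribosomal protein genes uncertain.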

Other observations

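Genes that control the translation of TOP mRNAs were measured beside the ribosomal proteins. All 16 measured genes of the mTORC1 list passed both limits, against 49.7% of all named genes at the stricter one. On replicate 2, 8 of the 16 were lower, against 48.8% of all genes, with a median difference of -0.02. Pdcd4, an inhibitor of the initiation helicase that S6 kinase marks for breakdown, was 11.47 on replicate 2 and 10.76 on replicate 1, and was the 1 gene of these 16 at least 1.5-fold apart, near the 4.77% of all genes. Myc, a transcription factor that drives ribosome production, was 11.83 on replicate 2 and 12.08 on replicate 1. Larp1, which binds TOP mRNAs and represses them, was 11.81 on replicate 2 and 12.02 on replicate 1. Mtor itself was 9.85 on replicate 2 and 10.04 on replicate 1, and Rheb, the GTPase that activates mTORC1, was 12.44 on replicate 2 and 12.21 on replicate 1.

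The S6 kinase genes share the Rps prefix and were left out of the members. Rps6kb2, which phosphorylates Rps6 downstream of mTORC1, was 9.94 on replicate 2 and 9.91 on replicate 1. Rps6ka3, an RSK kinase of the ERK pathway, was 10.67 on replicate 2 and 10.74 on replicate 1. Rps6ka5 was 7.48 on replicate 2 and 8.10 on replicate 1, a difference of -0.62 for a gene above the first limit and not above the stricter one. Rps6ka6 was 5.63 on replicate 2 and 6.23 on replicate 1, below the limit on both arrays.

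Of 8 genes measured from a list for the response to disturbed or stalled ribosomes, 5 were lower on replicate 2, against 48.8% of all genes. Their median difference was -0.08. Mdm2, the p53 ligase that free Rpl5 and Rpl11 bind, was 12.61 on replicate 2 and 12.83 on replicate 1. Usp16, a deubiquitinase that acts on the small subunit, was 10.98 on replicate 2 and 10.83 on replicate 1.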
